A study of Mus musculus with 6 samples.

Results

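The platelet-derived growth factor (PDGF) family was followed in cultured mouse retinal pigment epithelium (RPE) and choroid as 6 genes chosen by name, the 4 ligands Pdgfa, Pdgfb, Pdgfc and Pdgfd and the 2 receptors Pdgfra and Pdgfrb, of 52636 genes in the count table. The rule itself used no measured value, although the genes were chosen with earlier results of these data known. Tissue from male C57BL/6J mice aged 12 to 16 months was dissociated with papain, cultured, and profiled by droplet-based single-cell RNA sequencing of transcript 3′ ends. There were 3 samples of Dram2 wt/wt mice and 3 samples of Dram2 ko/ko mice. The ko/ko mice are homozygous for a constitutive CRISPR/Cas9 deletion of an exon of Dram2, a lysosomal membrane protein gene, so that every cell type of these samples carries the deletion. No treatment other than the culture is named for either group. Dram2 ko/ko replicate 3 was the only sample of batch 2, and whether a sample came from 1 mouse or from several was not given in the sources used here.

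PDGFs are secreted dimers that bind and pair receptor tyrosine kinases on neighbouring cells. PDGF-A and PDGF-C act mainly through the α receptor, PDGF-D acts mainly through the β receptor, and PDGF-B binds both. In blood vessels, PDGF-B made by endothelium recruits and maintains pericytes, the contractile cells around capillaries, which carry the β receptor, while the α receptor is a general marker of connective tissue fibroblasts.

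The samples held between 2140 and 6648 cells and between 96808998 and 122746184 unique molecular identifiers (UMIs, each standing for 1 captured RNA molecule). Levels are given as CPM, the UMIs of a gene per 1000000 UMIs of the summed cells. Dram2 itself was at 33.4, 39.6 and 38.1 CPM in the wt/wt samples and at 30.7, 28.3 and 30.1 CPM in the ko/ko samples. These groups did not overlap, but reads from the 3′ end lie outside the deleted exon and check the genotype little. The authors' annotation divided the 25428 cells into 8 types, of which Fibroblast (12651 cells), Fibroblast proliferating (6465) and Fibroblast 2 (3019) made up the greater part. RPE (1492), Fibroblast-like (1121), Pericyte (308), Endothelial (288) and Myeloid (84) cells were fewer. RPE ranged from 1.46% to 14.8% of the cells of a sample and Fibroblast-like from 1.82% to 14.9%, so in sums over all cells a change in the mixture and a change in the RNA per cell cannot be told apart.

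The annotation names were set against marker genes. Endothelial cells carried Pecam1 (653 CPM) and Cdh5 (971 CPM), and Myeloid cells carried Lyz2 (10629 CPM) and Ptprc (75.9 CPM). The cells named RPE carried Krt18 (710 CPM) and Otx2 (87.4 CPM), and the list of 8 RPE markers summed to 819 ± 343 CPM in them, nearly all of it from these genes. The other 6 were low, with Mitf, Ttr and Krt8 at 8.92, 6.86 and 3.94 CPM and Rpe65, the isomerase of the visual cycle, Pmel and Best1 at 0.693, 0.387 and 0.196 CPM. The markers of the cells named Pericyte were mixed. They carried the Schwann cell and neural crest genes Sox10 (179 CPM), Foxd3 (268 CPM) and Ngfr (407 CPM), and the whole list of 6 such genes summed to between 970 and 2429 CPM over the samples. Of 7 pericyte markers, Kcnj8, Higd1b and Ndufa4l2 were at 0, Abcc9, Notch3 and Rgs5 were at 0.110, 1.86 and 7.79 CPM, and Cspg4, which is not particular to pericytes, was at 199 CPM. The sum of these 7 was 208 CPM, above that of every other type (Fibroblast, 122 CPM), most of it from Cspg4. The name Pericyte is kept here only as the annotation's label for these Sox10-expressing cells.

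All 6 genes were detected in every sample. Summed over the samples there were 114274 UMIs of Pdgfa, 3658 of Pdgfb, 7138 of Pdgfc, 7193 of Pdgfd, 39602 of Pdgfra and 52131 of Pdgfrb. By the GENCODE M21 annotation of GRCm38, Pdgfa (ENSMUSG00000025856) lies at chr5:138976014-138997370 on the minus strand and Pdgfra (ENSMUSG00000029231) on the same chromosome at chr5:75152292-75198215 on the plus strand. Pdgfb (ENSMUSG00000000489) lies at chr15:79995874-80014977 (minus), Pdgfc (ENSMUSG00000028019) at chr3:81036416-81214040 (plus), Pdgfd (ENSMUSG00000032006) at chr9:6168584-6378850 (plus) and Pdgfrb (ENSMUSG00000024620) at chr18:61045150-61085061 (plus). All are protein coding. Of the stretches of 31 bases within the final 400 bases of each transcript, 12.8% for Pdgfa and 3.56% for Pdgfra also occurred in transcripts of other genes, and none for the other 4 genes.

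Each gene had its own distribution over the cell types. The types were clustered from these same cells, so levels between types are a description and were not tested. Pdgfb UMIs came mostly from the rare Pericyte (48.1%) and Endothelial (38.8%) cells, which were 1.21% and 1.13% of all cells and held 0.797% and 0.537% of all UMIs. By sample these shares of Pdgfb lay between 35.2% and 72.4% for Pericyte and between 20.2% and 54.6% for Endothelial cells, and RPE cells gave between 0.858% and 17.5%. Receptor UMIs came almost entirely from the fibroblast types, which also held most of all UMIs. Fibroblast, with 54.4% of all UMIs, gave 49.1% of Pdgfra and 60.2% of Pdgfrb UMIs. Fibroblast proliferating, with 27.0% of all UMIs, gave 30.1% and 26.5%, and Fibroblast 2, with 10.0% of all UMIs, gave 19.3% and 11.5%, so that the share of Pdgfra in Fibroblast 2 stood farthest from the type's share of all UMIs. RPE cells, with 5.93% of all UMIs, gave 24.6% of Pdgfc, 14.8% of Pdgfd and 9.93% of Pdgfa UMIs. By sample these shares ranged from 7.14% to 47.2% for Pdgfc, from 6.22% to 24.5% for Pdgfd and from 2.07% to 30.4% for Pdgfa, with ko/ko replicate 3 the highest for each. Without that sample, a setting chosen after the data were seen, they were 18.2%, 12.6% and 5.61%, beside 4.13% of all UMIs. Of Pdgfa, Fibroblast (52.2%, between 40.8% and 63.0% by sample) and Fibroblast proliferating (23.4%) gave slightly less than their shares of all UMIs, and Pericyte cells gave 5.92% (2.94% to 9.65% by sample).

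**Figure D1:**
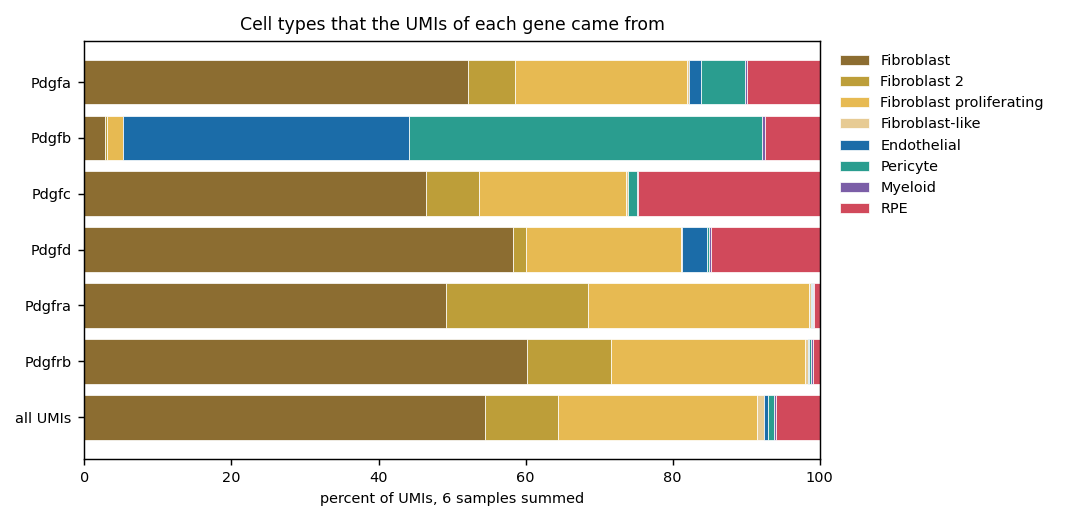
Bars give the percent of the UMIs of each gene, 6 samples summed, that came from each annotated cell type, with all UMIs of the table as the bottom bar for comparison. Pdgfb stands apart, with 48.1% of its UMIs in Pericyte and 38.8% in Endothelial cells.

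Pdgfa, the α-receptor ligand, was detected in every type, and its level was highest in Pericyte cells. There it was at 1446, 943 and 1043 CPM in the wt/wt samples and at 987, 1356 and 1626 CPM in the ko/ko samples (1234 ± 281, SD, n = 6). Each of these samples was above its own Endothelial level, which was 529, 368 and 536 CPM in wt/wt and 543, 519 and 615 CPM in ko/ko (518 ± 81.2). RPE followed with 210, 244 and 195 CPM in wt/wt and 245, 220 and 366 CPM in ko/ko (247 ± 61.6). Within each of the 6 samples the order was Pericyte, Endothelial, RPE, Fibroblast, Fibroblast proliferating. Relative to Fibroblast cells of the same sample (164 ± 22.8 CPM), Pdgfa was 7.58 ± 1.76 times as high in Pericyte, 3.20 ± 0.571 times in Endothelial and 1.55 ± 0.505 times in RPE cells. The Myeloid level (130 ± 51.6 CPM, n = 4) was above Fibroblast 2 in 3 of 4 samples and above Fibroblast proliferating in 2 of 4, so its place in the order was within its spread. Fibroblast 2 (105 ± 15.9 CPM) was below Fibroblast in 6 of 6 samples, and Fibroblast-like cells were lowest (47.3 ± 8.97 CPM).

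Pdgfb, the ligand of both receptors, separated the types most sharply. Endothelial cells held 355, 412 and 300 CPM in wt/wt and 615, 300 and 523 CPM in ko/ko (417 ± 128). Pericyte cells held 338, 250 and 340 CPM in wt/wt and 384, 330 and 382 CPM in ko/ko (337 ± 48.8). Endothelial was above Pericyte in 4 of 6 samples, so the order of these neighbours was not settled by the samples. Both were above RPE in 6 of 6 samples, where Pdgfb was between 3.97 and 13.7 CPM. In Fibroblast cells it was at 0.280 ± 0.130 CPM from 102 UMIs in 12651 cells. RPE was above Myeloid (6.76 ± 3.26 CPM, 10 UMIs) in 3 of 4 samples. Cells were also thinned to 4000 UMIs each, so that depth is equal. A Pdgfb UMI was then found in 71.1% ± 7.53 of Endothelial and 62.7% ± 10.1 of Pericyte cells, against 2.20% of RPE and 0.117% of Fibroblast cells. Whether the last value is background was not tested. The thinning left out 3.13% of Endothelial and 0.577% of Fibroblast cells, with median depths of 9262 and 26108 UMIs before it.

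Pdgfc, a latent α-receptor ligand that is released by proteolysis, was highest in RPE cells. It was at 36.3, 48.2 and 41.3 CPM in wt/wt and at 42.5, 33.4 and 45.3 CPM in ko/ko RPE cells (41.2 ± 5.51). Pericyte cells followed (17.1 ± 4.81 CPM), then Fibroblast cells, and this order held in 6 of 6 samples. The RPE level was 4.53 ± 0.675 times and the Pericyte level 1.88 ± 0.510 times the Fibroblast level of the same sample. Fibroblast values were close to each other, with 9.42, 9.13 and 9.13 CPM in wt/wt and 9.16, 9.12 and 8.65 CPM in ko/ko. Fibroblast proliferating (7.94 ± 1.34 CPM), Fibroblast 2 (7.57 ± 1.15 CPM) and Myeloid (6.96 ± 5.31 CPM) did not keep an order among themselves, each being above the next in 3 of 6 and 3 of 4 samples. In Endothelial cells only 2 Pdgfc UMIs were counted in 288 cells, in contrast to the other 3 ligands.

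Pdgfd, the latent β-receptor ligand, was highest in Endothelial cells, with 73.7, 57.3 and 58.2 CPM in wt/wt and 55.2, 77.2 and 90.1 CPM in ko/ko (68.6 ± 14.0). RPE was next with 37.8, 29.0 and 34.6 CPM in wt/wt and 35.1, 31.6 and 19.7 CPM in ko/ko (31.3 ± 6.41). Fibroblast cells came next (11.4 ± 1.14 CPM), and Endothelial, RPE and Fibroblast kept this order in 6 of 6 samples, at 6.00 ± 1.04 and 2.79 ± 0.757 times the Fibroblast level. Fibroblast and Myeloid (9.26 ± 5.69 CPM, 13 UMIs) did not differ beyond their spread. Among the larger fibroblast types, Pdgfd was lowest in Fibroblast 2. These cells held 1.85 ± 0.570 CPM, or 0.163 ± 0.0495 times the Fibroblast level, and were lower in 6 of 6 samples. Fibroblast-like cells (2.17 ± 1.87 CPM, 13 UMIs) were above them in 4 of 6 samples, so this pair was within its spread. Pericyte cells held 3.63 ± 2.22 CPM from 16 UMIs, so the Sox10-expressing cells carried Pdgfa and Pdgfb but little Pdgfd.

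**Figure D2:**
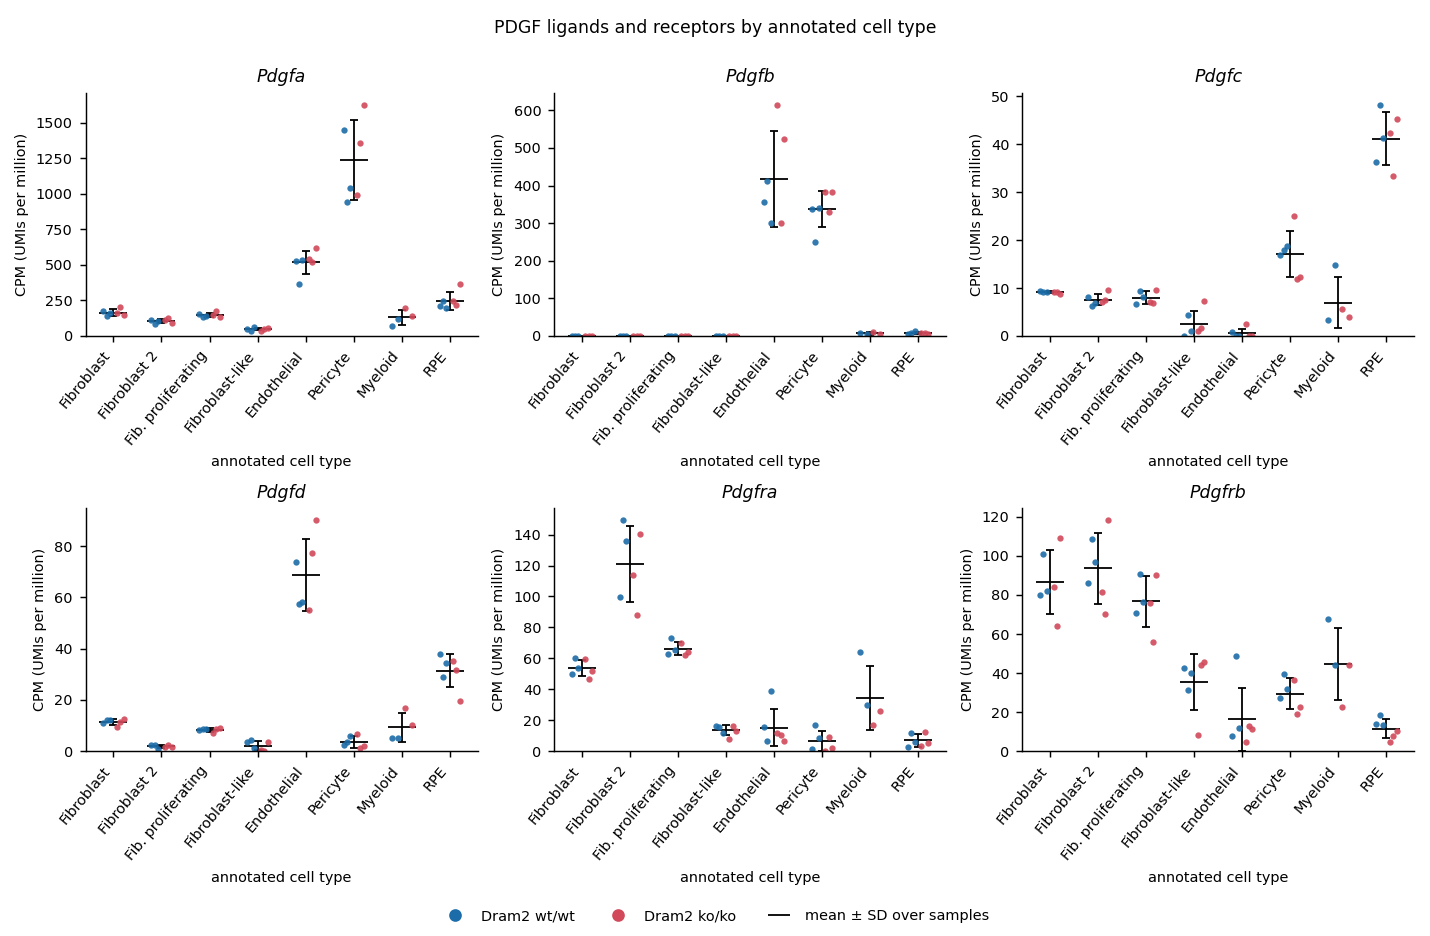
Points give the CPM of each gene in each sample (blue, Dram2 wt/wt; red, Dram2 ko/ko) by annotated cell type, and black bars the mean ± SD over samples with 10 or more cells, on a separate linear axis for each gene. Pdgfa and Pdgfb are high in Pericyte and Endothelial cells, Pdgfc in RPE, Pdgfd in Endothelial and RPE, and both receptors in fibroblasts.

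Pdgfra, the α receptor, was highest in Fibroblast 2. These cells held 99.5, 149 and 136 CPM in wt/wt and 114, 87.9 and 140 CPM in ko/ko (121 ± 24.5). Fibroblast proliferating held 66.2 ± 4.34 CPM and Fibroblast 53.6 ± 5.24 CPM, and Fibroblast 2, Fibroblast proliferating and Fibroblast kept this order in 6 of 6 samples. The Fibroblast 2 level was 2.25 ± 0.358 times and the proliferating level 1.24 ± 0.0542 times that of Fibroblast cells. Fibroblast 2 therefore paired the highest mean Pdgfra level of the types with the lowest mean Pdgfd level. Pdgfrb, the β receptor, differed less between Fibroblast, Fibroblast 2 and Fibroblast proliferating cells. It was at 79.8, 101 and 82.0 CPM in wt/wt and 84.2, 63.9 and 109 CPM in ko/ko Fibroblast cells (86.7 ± 16.2). Fibroblast 2 was 1.08 ± 0.0682 times that level and higher in 5 of 6 samples, and Fibroblast proliferating was 0.887 ± 0.0339 times that level and lower in 6 of 6. In all 3 of these types wt/wt replicate 2 and ko/ko replicate 3 were high and ko/ko replicate 2 was lowest. Pdgfrb thus differed more between samples than between these types. Fibroblast-like cells held less of both receptors, with 13.4 ± 3.25 CPM of Pdgfra and 35.3 ± 14.3 CPM of Pdgfrb. These levels average over fibroblast sub-clusters that differ, as given below. Pooled over samples, the ratio of Pdgfrb to Pdgfra UMIs was 1.61 in Fibroblast, 1.15 in Fibroblast proliferating and 0.779 in Fibroblast 2.

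Outside fibroblasts, receptor levels were set against fibroblast RNA that could reach other droplets. In RPE cells Pdgfra and Pdgfrb were at 13.0% and 13.2% of their Fibroblast level in the same sample, within the range of the fibroblast markers Col1a1, Col1a2, Col3a1, Dcn, Lum and Mgp in these cells (7.02% to 24.0%). In Myeloid cells they were at 62.2% and 49.3%, beside 55.2% to 94.6% for the markers, and the ligands Pdgfa, Pdgfc and Pdgfd were at 78.0%, 76.9% and 78.2%. Endothelial cells held 28.5% and 18.1% of the Fibroblast levels, beside 5.08% to 24.5% for the markers, with wt/wt values of Pdgfra that reached 38.8 CPM. The receptor levels of RPE and Myeloid cells, and the Pdgfa, Pdgfc and Pdgfd levels of Myeloid cells, are therefore not distinguishable here from background. In Pericyte cells Pdgfrb was at 27.1, 39.4 and 31.9 CPM in wt/wt and 36.3, 19.1 and 22.7 CPM in ko/ko, or 34.3% of the Fibroblast level, while Dcn was at 9.46%, Lum at 3.25% and Pdgfra at 11.8%. Col1a2 was at 577% in these cells, so the marker list gives no single background level for them.

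The annotation also divided fibroblasts into 9 sub-clusters, and these separated the receptors further. Sub-cluster 1 (9965 cells, nearly all Fibroblast) served as the reference, and sub-cluster 2 (6179) was mostly Fibroblast proliferating. Sub-cluster 3 (3790) held most Fibroblast 2 cells (2964), and also 811 Fibroblast cells. Sub-cluster 6 was mixed, with 193 Fibroblast, 168 Fibroblast-like and 115 Fibroblast proliferating cells. Pdgfrb was highest in the small sub-clusters 7 (214 cells) and 6 (477 cells). In sub-cluster 7 it was at 290, 389 and 266 CPM in wt/wt and 418, 220 and 417 CPM in ko/ko (333 ± 85.4), which was 4.34 ± 0.811 times sub-cluster 1. In sub-cluster 6 it was at 338, 338 and 332 CPM in wt/wt and 213, 262 and 340 CPM in ko/ko (304 ± 53.7), or 4.02 ± 0.764 times sub-cluster 1. Sub-cluster 7 was above sub-cluster 6 in 3 of 6 samples, so the receptor did not order the pair. Sub-cluster 6 cells had a median mitochondrial share of 21.0%, against 2.32% in sub-cluster 7, beside which these levels should be read. The order of the pair is given only for totals that include mitochondrial genes.

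Sub-clusters 7 and 6 differed in the other receptor. Pdgfra was at 3.38, 15.1 and 7.70 CPM in wt/wt and at 28.1, 9.14 and 12.2 CPM in ko/ko in sub-cluster 7 (12.6 ± 8.57), below sub-clusters 1 to 4 in 6 of 6 samples and 0.230 ± 0.137 times sub-cluster 1. In sub-cluster 6 it was at 122 ± 27.4 CPM, 2.32 ± 0.578 times sub-cluster 1. The pooled Pdgfrb to Pdgfra UMI ratio was thus 26.6 in sub-cluster 7 (1462 against 55 UMIs), 2.53 in sub-cluster 6 and 1.45 in sub-cluster 1. By sample, the ratio in sub-cluster 7 was 36.6 ± 25.3 and ranged from 14.9 to 86.0, while it was at most 3.74 in sub-cluster 6 and 1.93 in sub-cluster 1. Sub-cluster 7 also had the highest fibroblast level of Pdgfa (487 ± 70.9 CPM, 3.07 ± 0.346 times sub-cluster 1), and that ligand was higher there than in sub-cluster 4, the next, in 6 of 6 samples. Pdgfb was at 3.20 ± 2.86 CPM from 17 UMIs. Several pericyte and smooth muscle genes were found in sub-cluster 7, with Cspg4 at 142 CPM, Ndufa4l2 at 98.1 CPM, Rgs5 at 108 CPM, Kcnj8 at 15.2 CPM and Myh11 at 318 CPM. Its Pdgfrb level was 11.7 ± 3.46 times that of the cells labelled Pericyte. Not all of these genes were highest there. Rgs5 and Notch3 were higher in sub-cluster 4 (326 and 48.9 CPM), Kcnj8 was higher in sub-cluster 3 (18.5 CPM), and the smooth muscle genes Acta2, Tagln and Cnn1 (11927, 9186 and 305 CPM in sub-cluster 7) were higher in sub-cluster 1 (12215, 9921 and 590 CPM).

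Sub-cluster 3 had 2.15 ± 0.318 times the Pdgfra level and 1.54 ± 0.118 times the Pdgfrb level of sub-cluster 1. Its Pdgfd level was 0.317 ± 0.0259 times that of sub-cluster 1, and each direction held in 6 of 6 samples. It held 10008 Pdgfrb UMIs, beside 5970 in all Fibroblast 2 cells. A large part of its Pdgfrb therefore came from its other cells, mostly labelled Fibroblast. Sub-cluster 2 had 1.25 ± 0.0594 times the Pdgfra level and 0.682 ± 0.0271 times the Pdgfd level. Sub-cluster 4 (1558 cells) had 1.29 ± 0.0711 times the Pdgfa level and 0.711 ± 0.0711 times the Pdgfra level, and its Pdgfd level was 0.453 ± 0.0644 times that of sub-cluster 1. Pdgfc was at 9.52 CPM in sub-cluster 1, and at 0.813 ± 0.0505 times that level in sub-cluster 3 and 0.695 ± 0.144 times in sub-cluster 4, lower in 6 of 6 samples each, while sub-cluster 2 (0.833 ± 0.135 times) was lower in 5 of 6. Sub-cluster 6 had the highest mean of Pdgfd (15.3 ± 6.13 CPM from 40 UMIs), which was above sub-cluster 1 in 5 of 6 samples but above sub-cluster 9, the next (13.6 ± 9.33 CPM), in 1 of 3. Sub-clusters 5 and 8, mostly Fibroblast-like, held few receptor UMIs, and sub-cluster 8 had a median mitochondrial share of 91.1%. Fibroblast-like cells lay mainly in sub-clusters 5 (763 cells), 6 (168) and 8 (168). They held 202 Pdgfrb UMIs, while all cells of sub-clusters 5 and 8 held 38 and 4. Most of the Fibroblast-like Pdgfrb UMIs thus came from cells of other sub-clusters.

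**Figure D3:**
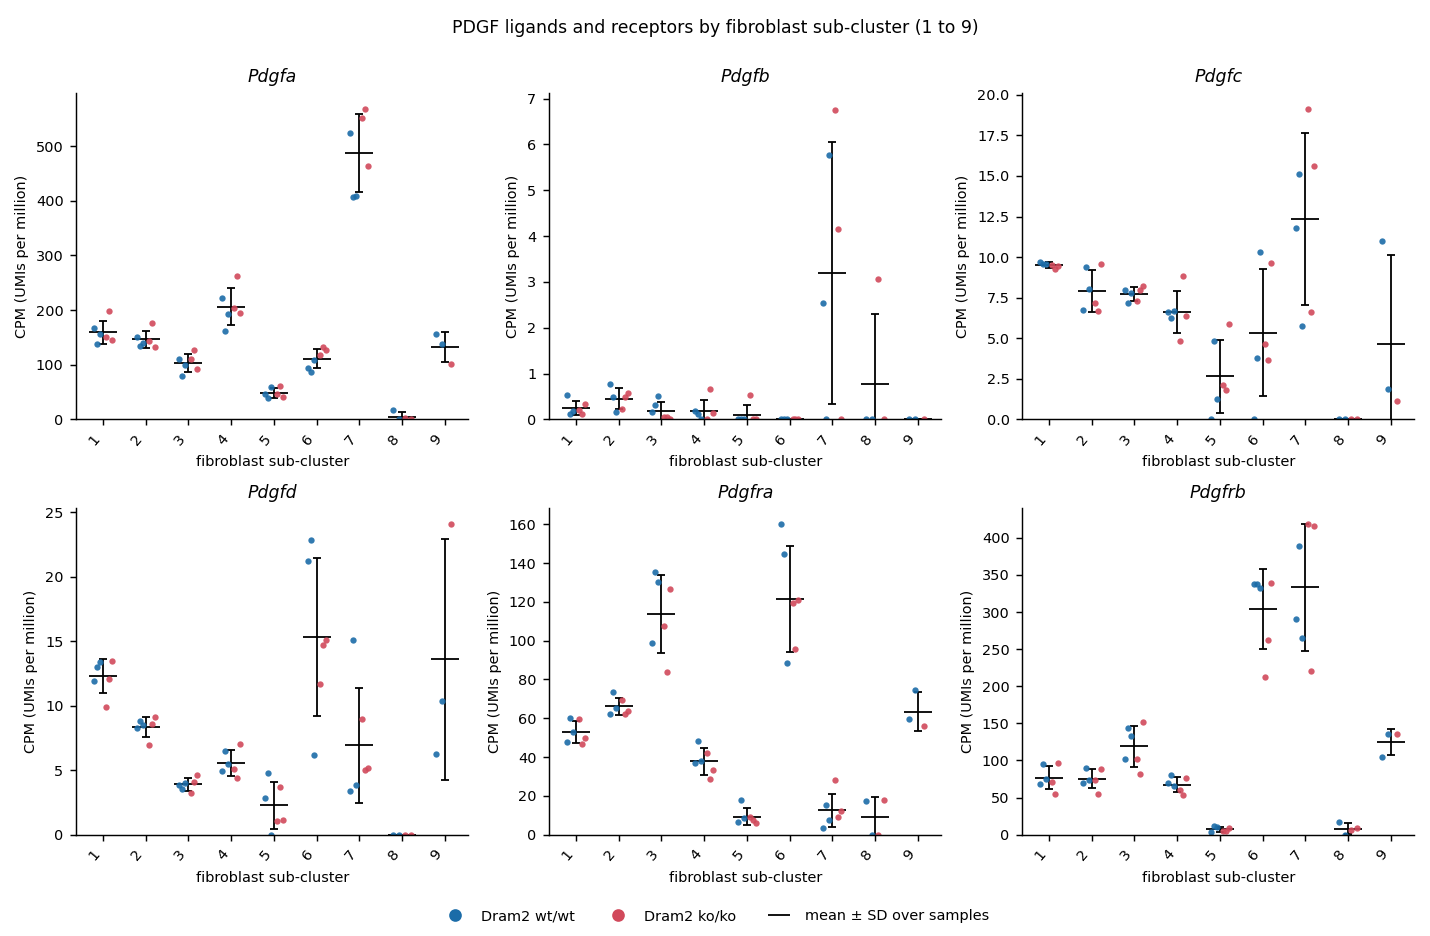
Points give the CPM of each gene in each sample (blue, Dram2 wt/wt; red, Dram2 ko/ko) by fibroblast sub-cluster 1 to 9, and black bars the mean ± SD over samples with 10 or more cells, on a separate linear axis for each gene. Pdgfrb is high in sub-clusters 6 and 7, whereas Pdgfra is high in 3 and 6 and low in 7.

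Single cells were compared after thinning each to 4000 UMIs, which left out 219 wt/wt cells (1.72%) and 333 ko/ko cells (2.63%). In Fibroblast cells 5.82% ± 1.47 had UMIs of both receptors, 12.6% ± 0.908 of Pdgfra only, 22.1% ± 2.63 of Pdgfrb only and 59.5% ± 3.60 of neither. Pdgfrb was found in 31.3% ± 6.13 of the cells with a Pdgfra UMI and in 27.1% ± 3.52 of those without, and the first share was higher in 6 of 6 samples. The receptors were therefore found together in a part of the cells. Doublets were not removed from these shares. In Fibroblast 2 both were found in 10.5% ± 3.39 of cells, and the share with Pdgfrb was 30.6% among Pdgfra-positive and 27.3% among Pdgfra-negative cells. In sub-cluster 1 the share was higher among Pdgfra-positive cells in 4 of 6 samples (26.9% against 24.8%). Detection of both receptors was most frequent in sub-cluster 6, in 20.9% ± 6.38 of cells, with Pdgfrb alone in 41.4% ± 8.97 and neither in 25.0% ± 6.79 (274 of 477 cells, 5 samples). There Pdgfrb was found in 61.6% of Pdgfra-positive and 62.2% of Pdgfra-negative cells, and the first was higher in 3 of 5 samples. A Pdgfa UMI together with a UMI of either receptor was found in 16.6% ± 1.18 of Fibroblast cells. These shares count cells in which a UMI was captured, and before thinning 88.6% of Fibroblast cells had a Pdgfa, 61.2% a Pdgfra and 75.7% a Pdgfrb UMI.

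**Figure D4:**
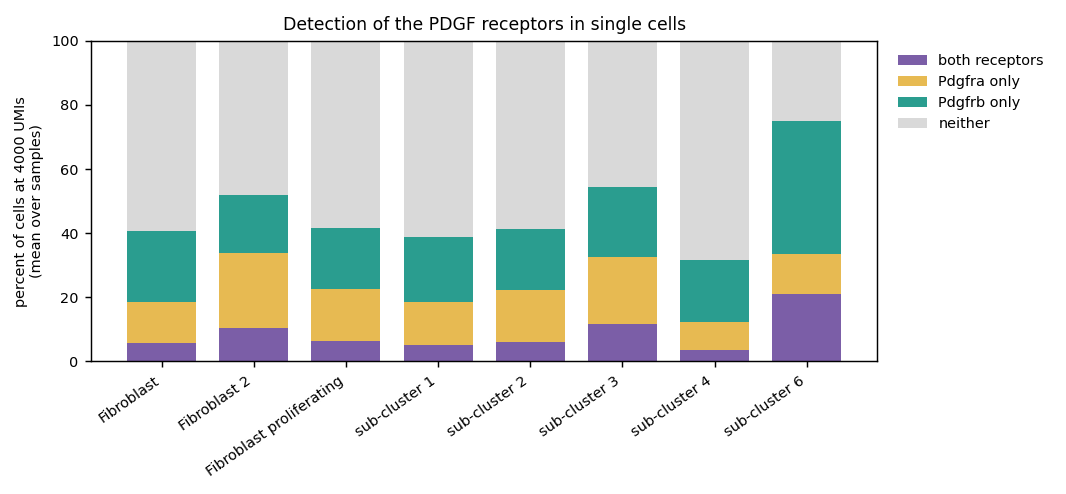
Stacked bars give the mean percent of cells, over samples, with UMIs of both receptors, of Pdgfra only, of Pdgfrb only or of neither after thinning to 4000 UMIs per cell, for fibroblast types and sub-clusters with enough cells. Sub-cluster 6 has the largest share with both receptors, 20.9%, against 5.82% of Fibroblast cells.

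The comparison the study was designed for, Dram2 ko/ko against wt/wt, did not separate the PDGF genes over all cells. Pdgfa was at 178, 151 and 158 CPM in wt/wt and at 153, 202 and 181 CPM in ko/ko, with a log2 fold change (ko/ko over wt/wt) of 0.15 (SE 0.13, voom-limma, Benjamini-Hochberg adjusted p = 0.92). Pdgfb was at 8.12, 4.57 and 4.28 CPM in wt/wt and at 4.84, 6.18 and 4.76 CPM in ko/ko (log2 fold change -0.03, SE 0.25). The wt/wt replicate 1 sample was the high one, and the groups overlapped for both genes. Pdgfc was at 8.90, 13.0 and 9.92 CPM in wt/wt and at 9.09, 8.64 and 14.4 CPM in ko/ko (0.02, SE 0.21), and Pdgfd at 10.2, 12.3 and 11.6 against 8.24, 9.77 and 12.1 CPM (-0.17, SE 0.15). The receptors changed as little. Pdgfra was at 57.2, 63.3 and 58.9 CPM in wt/wt and at 67.4, 55.3 and 54.1 CPM in ko/ko (-0.01, SE 0.096), and Pdgfrb at 75.3, 88.8 and 77.7 against 76.8, 60.3 and 88.6 CPM (-0.10, SE 0.13). Adjusted p-values of the 6 genes lay between 0.92 and 0.996, none of the 6 had groups without overlap, and 0% of the 22580 genes tested were called at an adjusted p under 0.05 while 11.5% had groups that did not overlap.

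By cell type and sub-cluster the result was the same. Over 16 comparisons in which a member passed the filter on low counts (all cells, 8 types and 7 sub-clusters) there were 70 tests of members, and 0 were called by voom-limma, 0 by the edgeR quasi-likelihood test and 0 by DESeq2. At an unadjusted p under 0.05 there were 2, 2 and 1. There were 8 with the batch as a covariate and 9 of 71 without ko/ko replicate 3, the batch 2 sample, with 0 called in both. Of all genes, between 4.63% and 7.48% had such a p in the 16 comparisons by voom-limma, and 4.62% by DESeq2 over 17 comparisons. For the batch covariate and without ko/ko replicate 3 that share is not given here, so the 8 and the 9 have no background beside them. In the types, 36 tests gave log2 fold changes between -0.88 and 0.86 with adjusted p-values from 0.722. The lowest was Pdgfrb in Fibroblast-like cells (-0.88, SE 0.52, voom-limma adjusted p = 0.969), which lay in sub-clusters of unlike Pdgfrb level. In the sub-clusters 28 tests gave log2 fold changes between -0.33 and 0.34 with adjusted p-values from 0.839. The share of all genes called was 0% in Endothelial, Fibroblast-like and RPE cells and 0.0118% and 0.0296% in Pericyte and Myeloid cells. Among the larger fibroblast types it was 0.624% for Fibroblast proliferating, 0.222% for Fibroblast 2 and 0.00503% for Fibroblast. It was 0.32%, 0.55%, 0.00634% and 0.722% in sub-clusters 1 to 4, 0% in sub-clusters 5, 6 and 8, and 0.402% in sub-cluster 7. Sub-cluster 9 had too few samples to test, and no member passed the filter in sub-cluster 8.

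In the types with high ligand levels the effects were under 2 times their errors. In Endothelial cells the log2 fold change was 0.27 (SE 0.18) for Pdgfa, 0.41 (SE 0.24) for Pdgfb and 0.22 (SE 0.24) for Pdgfd, and in Pericyte cells 0.20 (SE 0.20) for Pdgfa and 0.23 (SE 0.16) for Pdgfb, with adjusted p-values from 0.884. Leaving out single samples moved them to between 0.10 and 0.37, 0.20 and 0.73, and 0.07 and 0.41 in Endothelial cells, and to between 0.04 and 0.38 and between 0.10 and 0.34 in Pericyte cells. The lowest values were those without wt/wt replicate 2 for Endothelial Pdgfa and Pericyte Pdgfb, without ko/ko replicate 1 for Endothelial Pdgfb, and without ko/ko replicate 3 for Endothelial Pdgfd and Pericyte Pdgfa. In Fibroblast cells it was -0.05 (SE 0.10) for Pdgfra and -0.06 (SE 0.18) for Pdgfrb. Pdgfrb in RPE cells was at 13.9, 18.4 and 13.3 CPM in wt/wt and 4.56, 7.89 and 10.3 CPM in ko/ko, with no overlap of the groups and a log2 fold change of -0.88 (SE 0.28). Its unadjusted p by voom-limma was 0.0158 and its adjusted p 0.768. This effect was over 3 times its SE and rested on 500 UMIs, and it was -1.33 without ko/ko replicate 3 and -0.67 without wt/wt replicate 2. No overlap was found for 7.57% of genes in RPE cells. This was a level not distinguishable from fibroblast background, and the summed CPM of the 6 fibroblast markers in these cells, all of them detected, was between 570 and 1203 in wt/wt and between 345 and 573 in ko/ko. The part of fibroblast RNA in this difference was not tested.

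In Myeloid cells, with 2 samples a group, Pdgfa was at 67.6 and 121 CPM in wt/wt and 193 and 138 CPM in ko/ko (log2 fold change 0.86, SE 0.32, voom-limma adjusted p = 0.722). Without wt/wt replicate 3, which left 1 wt/wt sample against 2 and assumes that it varies like the others, the log2 fold change was 1.27 with an adjusted p of 0.0297 by voom-limma, the one setting under which a member was called. In that setting 1.04% of all genes were called, against 0.0296% with all 4 samples. Pdgfra and Pdgfrb were lower in both ko/ko Myeloid samples than in both wt/wt samples, but 33.7% of genes in Myeloid cells showed no overlap. The summed fibroblast markers of Myeloid cells were between 1723 and 4789 CPM in wt/wt and between 2464 and 4032 CPM in ko/ko, and their part was not tested. Among sub-clusters, Pdgfc in sub-cluster 1 was at 9.72, 9.60 and 9.59 CPM in wt/wt and 9.52, 9.25 and 9.44 CPM in ko/ko, a log2 fold change of -0.04 (SE 0.095) whose groups did not overlap, as for 11.5% of genes there. Pdgfa in sub-cluster 6 was at 94.5, 87.4 and 109 CPM in wt/wt and 117, 133 and 126 CPM in ko/ko (0.34, SE 0.21), without overlap, as for 9.39% of genes there.

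**Figure D5:**
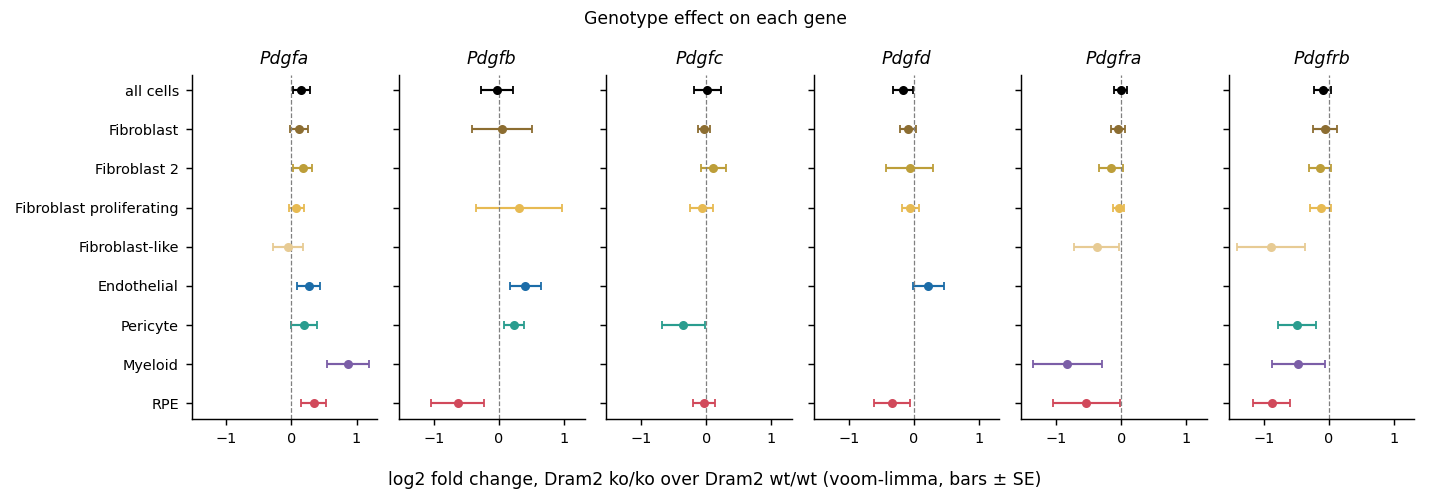
Points give the log2 fold change of each gene (Dram2 ko/ko over wt/wt, voom-limma) in all cells and in each cell type where it passed the filter on low counts, and bars the SE. No member was called, and the points farthest from 0 are those of Myeloid, RPE and Fibroblast-like cells, with values between -0.88 and 0.86.

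Whether a genotype effect differed between Fibroblast and another type was tested as an interaction with the sample as a factor. Of 41 tests of members, 0 were called by voom-limma, with adjusted p-values from 0.868, and 1 had an unadjusted p under 0.05. That was Pdgfrb in RPE, where the log2 fold change was lower than that of Fibroblast cells (difference -0.94, SE 0.24, unadjusted p = 0.00471, adjusted p = 0.9999 by voom-limma). The edgeR quasi-likelihood test gave an unadjusted p of 0.00389 for it, called 0 of the 41 and had 3 with an unadjusted p under 0.05. The share of all genes called was 0% for Endothelial, Fibroblast 2, Fibroblast-like, Myeloid, Pericyte and RPE cells and 0.0101% for Fibroblast proliferating. Between 1.86% (RPE) and 6.00% (Endothelial) of all genes had an unadjusted p under 0.05 by voom-limma.

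Shares of cells with a UMI were set side by side as well, although with 3 samples against 3 the exact permutation test cannot go below 0.1 and so cannot call a difference. Over all cells thinned to 4000 UMIs, Pdgfa was found in 41.4% of cells in wt/wt and 43.1% in ko/ko, Pdgfra in 19.1% and 19.5%, and Pdgfrb in 25.7% and 23.2% (means of 3 samples each). By the exact two-sided permutation test, p was 0.7 for Pdgfa, 0.4 for Pdgfra and 0.3 for Pdgfrb, and 0.2 for Pdgfd, the lowest of the 6 genes (0.75 after Benjamini-Hochberg adjustment over the 6). When single samples were left out, the difference (ko/ko minus wt/wt) stayed below 0 for Pdgfrb, between -4.31 and -1.48 percentage points, and for Pdgfd, between -1.25 and -0.57, and stayed above 0 for Pdgfra, between 0.153 and 0.829. The other 3 genes changed sign. These shares are over all cells, so a change in the mixture of types and a change within a type cannot be told apart. Before thinning, Pdgfa was found in 82.7% and 81.0%, Pdgfra in 57.5% and 55.8% and Pdgfrb in 67.7% and 62.6% of wt/wt and ko/ko cells.

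The neighbouring genes of the pathway, taken as 6 lists, did not separate the genotypes by voom-limma without covariates. Over all cells every gene of 5 lists passed the filter, as did 5 of 7 genes of the last. Over 17 comparisons, 0 of 799 tests were called by voom-limma and 0 by the edgeR quasi-likelihood test, beside 0.216% and 0.129% of the tests of all genes. DESeq2 called 2. By voom-limma, 25 of the 799 had an unadjusted p under 0.05, beside between 3.64% and 7.48% of all genes, depending on the comparison. The DESeq2 calls were both Ccl2, in Fibroblast proliferating and in sub-cluster 2, which hold mostly the same cells, and DESeq2 called 1.13% of all genes over the 17 comparisons. Median log2 fold changes over all cells were -0.02 for 7 proteases that can process the ligands, -0.04 for 8 binders and co-receptors, -0.04 for 19 receptor adaptors and enzymes, 0.07 for 12 attenuators, -0.01 for 9 genes known to be induced by PDGF, and -0.04 for 5 tested ligands and receptors related to the same receptor class, against 0.0046 for all genes. Among proteases Furin, a proprotein convertase that cuts PDGF-A and PDGF-B, was at 73.9 CPM in wt/wt and 72.7 CPM in ko/ko, and Plat, tissue plasminogen activator, which activates PDGF-C, at 8.69 and 10.5 CPM. Sparc, an extracellular binder of PDGF, was at 3365 and 3389 CPM, and Lrp1, an endocytic co-receptor, at 304 and 275 CPM. Ptpn11, the phosphatase SHP2, was at 110 and 117 CPM, and the attenuator Ptpn1, a phosphatase that acts on the receptors, at 89.6 and 93.3 CPM. Ccl2, a chemokine induced by PDGF in fibroblasts, had the largest change of the named genes, at 247 CPM in wt/wt and 371 CPM in ko/ko (log2 fold change 0.55, SE 0.25, voom-limma adjusted p = 0.763). By voom-limma its log2 fold change was 0.48 (SE 0.10, adjusted p = 0.092) in Fibroblast proliferating and 0.42 (SE 0.11, adjusted p = 0.202) in sub-cluster 2. With the batch as a covariate, or without ko/ko replicate 3, Ccl2 was called in all cells, Fibroblast and Fibroblast proliferating. Both settings take that sample, the only one of batch 2, out of the genotype comparison, so they are not separate tests. In these settings 0.450% and 0.522% of the tests of all genes were called.

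For each member the genes with the most similar pattern were found over 46 sums of a cell type in a sample, by Pearson's r of log2(CPM + 1) among 10407 genes. The sums of 1 sample share a library and those of 1 type share their clustering, so r is a description. Pdgfa was most like Foxo1 (r = 0.954), Myo1e (0.925) and Tspan15 (0.920), Pdgfb most like Plxna4 (0.943), Mal (0.932) and Tnfaip8l1 (0.915), and Pdgfc most like Ncam1 (0.916), Lurap1l (0.875) and Hsd17b12 (0.862). Pdgfd was similar to Tmem88 (0.850) and Prnd (0.849). Of the receptors, Pdgfra was most like Frzb (0.933) and Tmem45a (0.919), and Pdgfrb most like the collagen genes Col3a1 (0.898) and Col11a1 (0.885) and Fam20a (0.863). By Spearman's rho, 1 of the first 3 genes by r was again among the first 3 for Pdgfa, Pdgfc, Pdgfra and Pdgfrb, and 0 for Pdgfb and Pdgfd.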

How the data were processed

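The authors aligned the reads to the mouse genome and deposited 1 table of raw UMI counts per gene and cell, counted over exons, together with a table of other values per cell per the file headers (sample, genotype, batch, cell type and fibroblast sub-cluster). The submitters' processing notes name Cell Ranger 3.1.0 and GRCm38. Cell types came from the authors' Seurat clusters. The steps from there were as follows. All 25428 cells were kept. Doublets were not removed, since the sources used here do not say how they were treated, and as an alternative the 5% of cells richest in UMIs were dropped from every sample. Cell names carry no barcodes, so shared barcodes between libraries were not counted.

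Counts were summed per sample over all cells, and per cell type or sub-cluster with 10 or more cells. Genes of low count were removed by filterByExpr and TMM factors were computed (both edgeR 4.0.16), and all genes were then tested with voom-limma (limma 3.58.1, R 4.3.3), the method named in the study's methods, without covariates. The Benjamini-Hochberg adjustment was made over all genes of a comparison, with a threshold of 0.05. Each genotype needed at least 2 samples of a type, or at least 1 when a single sample was left out. In Myeloid cells wt/wt replicate 1 (9 cells) and ko/ko replicate 1 (3 cells) were below the minimum. The edgeR quasi-likelihood test, DESeq2 1.42.0, other size factors, the filters, the batch, the replicate number and leaving out each sample were alternatives. Because separate cultures or animals are not documented for each sample, p-values measure the spread between these samples, which may be technical.

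Genes named in the text are the 6 members, for each pathway list up to 4 genes that were called or, failing that, had the highest mean CPM, and the 3 genes most like each member. A few genes that this rule or the marker lists hold are not reported here. The members, the pathway lists and the marker lists were chosen with earlier results of these data known. For shares of cells with a UMI, each cell was thinned at random to 4000 UMIs (numpy 2.4.6) and shallower cells were left out. Shares cover cells with a captured UMI only. Exact permutation tests used scipy 1.17.1, and figures matplotlib 3.10.9. Sequences of the genes are not shown here.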

Additional observations from a re-analysis of the deposited data

How the results depend on the processing

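No member was called in any comparison under any other setting, except the Myeloid one given above, so that the count of members called in Myeloid cells lay between 0 and 1 when single samples were left out. Of the log2 fold changes over all cells, several close to 0 changed sign. For Pdgfb the value was 0.047 with the batch as a covariate, 0.0059 without the top 5% of cells by UMIs, and between -0.21 and 0.26 without single samples. For Pdgfc it was -0.0014 with library size alone, -0.22 with the batch as a covariate, and between -0.21 and 0.15 without single samples. For Pdgfra it was 0.0026 by DESeq2, 0.056 with the batch as a covariate, and between -0.11 and 0.057 without single samples. For Pdgfrb it lay between -0.21 and 0.029 without single samples. In Fibroblast cells the same ranges were -0.023 to 0.22 for Pdgfa, -0.11 to 0.029 for Pdgfra and -0.23 to 0.14 for Pdgfrb. The difference between genotypes in the share of all cells with a UMI, in percentage points, became -1.64 for Pdgfa, 0.354 for Pdgfc and -1.79 for Pdgfra with no thinning, and 0.434 for Pdgfc and -0.96 for Pdgfra at 8000 UMIs. Without single samples it lay between -1.08 and 4.35 for Pdgfa, between -0.68 and 0.0623 for Pdgfb and between -1.09 and 0.158 for Pdgfc. Genes of the pathway lists called over the 17 comparisons numbered 2 by DESeq2 (0.251% of tests, against 1.13% of all genes) and 2 with no filter on low counts (0.196% against 0.283%). There were 4 with the batch as a covariate (0.501% against 0.450%). Without single samples there were between 0 and 4, the 4 being those without ko/ko replicate 3 (0.489% against 0.522%). In both settings with 4 calls, these were Ccl2 in all cells, Fibroblast and Fibroblast proliferating, and Kitl in sub-cluster 4. With no filter on low counts they were Ccl2 in Fibroblast proliferating and Sparc in sub-cluster 7. With the total taken without mitochondrial genes, the sub-cluster 6 levels were 380 CPM for Pdgfrb and 152 CPM for Pdgfra. In none of these was the cause tested. With the replicate block, 0 of 70 member tests were called and 1 had an unadjusted p under 0.05. The deviations of same-numbered samples correlated at 0.0987, -0.43 and 0.028, and those of differently numbered samples at between -0.441 and 0.485. Deviations from means of 3 samples are not independent, so these values cannot decide whether the replicate numbers pair the samples. The batch covariate removes ko/ko replicate 3 from the comparison, so batch 2 and the genotype of that sample cannot be told apart. Depth limits the small types most, where 2 to 17 UMIs of a member stood behind several levels.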

Other observations

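Csf1r and Kit, relatives of the PDGF receptors in class III of the receptor tyrosine kinases that bind colony-stimulating factor 1 and stem cell factor, were distributed differently from Pdgfra and Pdgfrb. Csf1r, the receptor of macrophages, was at 169 CPM in Myeloid cells (4 samples) and at 1.35 CPM in Fibroblast cells. Its ligand Csf1 was highest in Fibroblast cells (980 CPM), with 893 CPM in Fibroblast 2 and 739 CPM in Fibroblast proliferating cells. The other ligand of that receptor, Il34, was found in Pericyte (48.0 CPM) and RPE cells (17.5 CPM), the types that also held the highest Pdgfc levels, and was at 2.00 CPM in Fibroblast cells. Kit was detected mainly in Endothelial cells (11.1 CPM), and its ligand Kitl was at 207 CPM in Pericyte, 146 CPM in Endothelial and 105 CPM in Fibroblast 2 cells.

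Plat, whose product activates PDGF-C, was at 70.6 CPM in Pericyte, 62.1 CPM in Endothelial and 26.3 CPM in RPE cells, against 6.15 CPM in Fibroblast cells. Plau, urokinase, was highest in Fibroblast 2 (19.1 CPM, against 8.09 CPM in Fibroblast cells). The neuropilin Nrp1 was at 277 CPM in Endothelial and 168 CPM in Fibroblast cells. Among genes induced by PDGF, Ccl2 was at 1165 CPM and Ccnd1 at 18.8 CPM in Fibroblast 2, against 218 and 244 CPM in Fibroblast cells. These levels between types are a description, were chosen after their values were seen, and were not tested.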
